A study of Mus musculus with 21 samples.

Results

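Alveolar macrophages were taken from the single-cell RNA-sequencing libraries of unchallenged mouse lung and of the tumor microenvironment (TME) of melanoma lung metastases. The cells were chosen by measured RNA: a cell was counted as an alveolar macrophage if it held a unique molecular identifier (UMI, 1 captured RNA molecule) of at least 4 of Chil3, Ear2, Marco, Abcg1, Atp6v0d2, Plet1, Lpl and Mrc1. It also had to hold UMIs of fewer than 2 of C1qa, C1qb and C1qc, and none of Col1a2, Pecam1 and Sec14l3, which mark fibroblasts, endothelial cells and ciliated cells. This rule found 4794 of 45034 cells in 8 libraries, 4655 of them in the 4 unchallenged lung libraries (replicates 1, 4, 5 and 6) and 139 in the 4 lung metastasis libraries (replicates 1-3, 4, 5 and 6). The hosts were mT/mG mice, whose own cells all express the red fluorescent protein tdTomato. MT-ret melanoma fragments without the label had been transplanted under the skin of young adult males and females, and the primary tumor was resected so that lung metastases could grow out. Unchallenged lungs were normal lung tissue taken as control, and the paper does not name the strain of these mice separately. Unchallenged lungs and lung metastases were dissociated enzymatically and cryopreserved. Their cells were sorted as living and tdTomato-positive, with or without depletion of CD45-positive leukocytes, and run on droplet-based 3′ chemistry. The paper states that its metastasis samples held a small amount of adjacent tissue without tumor. How much each library held is not given. Which gate each library passed through is not stated in the labels. The cell table names the library taken here as lung replicate 1 with the replicate number 2; it was matched as the 1 lung name and the 1 lung label left over, so its tissue comes from its name but its number does not.

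Alveolar macrophages live on the air side of the alveolus, where they engulf inhaled particles and recycle surfactant lipid. They settle around birth from fetal monocytes under granulocyte-macrophage colony-stimulating factor (GM-CSF) and TGF-β, which maintain the lipid-sensing transcription factor PPARγ. The other lung macrophages lie in the interstitium and around vessels, make complement C1q and present antigen on MHC class II.

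The libraries differed in ways the tissue labels do not give. Ptprc, the gene for CD45, was detected in 36.7% to 80.4% of cells of the unchallenged lungs, in 80.3% and 75.0% of metastasis replicates 1-3 and 4, and in 2.26% and 29.5% of metastasis replicates 5 and 6. Among the alveolar macrophages themselves, 83.3% to 100% held a Ptprc UMI in every library. Lung replicate 6 stood apart. It had 25966 barcodes with a median of 1605 UMIs, 39.5% of its cells held at least 4 of the 8 alveolar genes, and only 10.7% held none of them, against 26.8% to 80.2% in the other libraries. Its alveolar macrophages also carried more RNA of other cells: club cell markers summed to 8167 CPM (the UMI count of a gene scaled to a common library total), against 7.67 to 2411 CPM in the other lungs, and neutrophil markers to 5705 CPM, against 70.9 to 1111 CPM. Metastasis replicates 7 and 8 held the same counts as replicates 5 and 6 and were counted once, and no other pair of libraries shared more than 48 barcodes. Xist and the Y-linked gene Ddx3y showed that lung replicate 5 came from a male and the other lungs, like metastasis replicates 1-3, from females. No doublet caller was run.

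Alveolar macrophages made up 10.6% of cells in lung replicate 1 (141 of 1326), 0.759% in replicate 4 (31 of 4085), 2.91% in replicate 5 (175 of 6009) and 16.6% in replicate 6 (4308 of 25966). In the metastasis libraries they made up 15.9% of replicates 1-3 (125 of 785), 0.605% of replicate 4 (4 of 661), 0.116% of replicate 5 (6 of 5166) and 0.386% of replicate 6 (4 of 1036). The ranges of the 2 tissues overlapped, and within each tissue the share varied over more than an order of magnitude. These shares were not compared between tissues, because the gates and the amount of adjacent lung in each metastasis sample are not known. Most of the metastasis cells thus came from 1 library by sample label. The deposited cell table splits its barcodes between 2 library names, with 39 cells of mouse 2 and 86 of mouse 3.

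**Figure D1:**
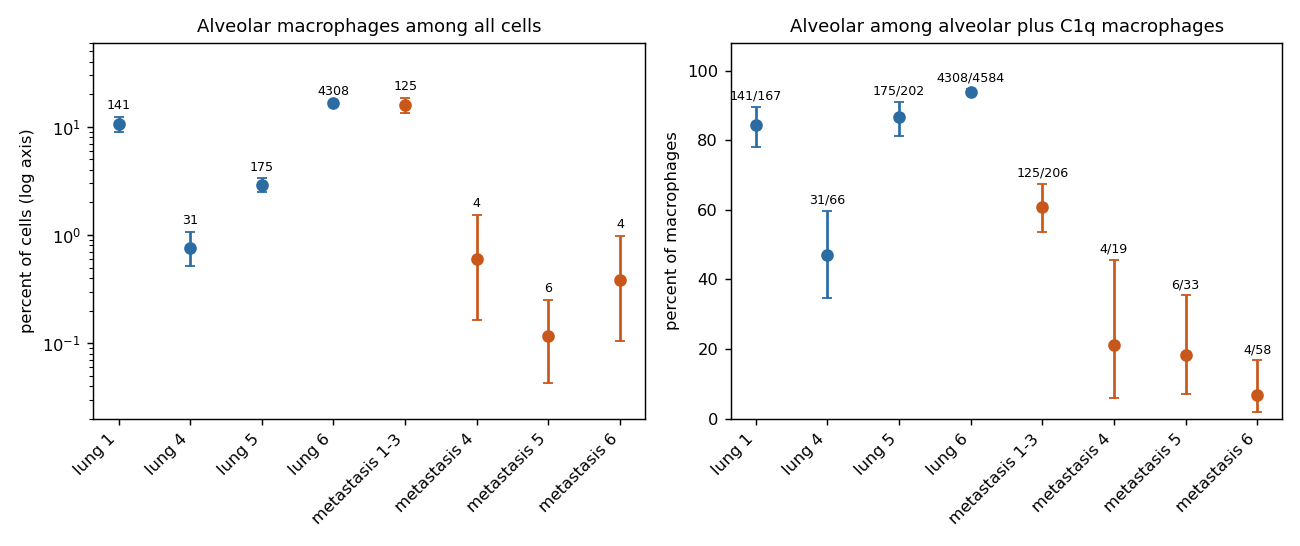
Left: alveolar macrophages as a percent of all cells in each library (log axis), with the number of cells above each point. Right: alveolar macrophages as a percent of alveolar plus C1q macrophages. Bars are 95% exact binomial intervals, which cover counting error only, and blue marks unchallenged lung and orange lung metastasis; the share of macrophages lay between 47.0% and 94.0% in the lungs and between 6.90% and 60.7% in the metastases.

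At the edge of the rule the cells were few outside lung replicate 6. In lung replicates 1, 4 and 5, the 214 cells with 3 of the 8 genes gave a median of 0.135% of their UMIs to these genes, and 0.467% of them held Siglecf, the gene for the sialic-acid-binding receptor by which alveolar macrophages are sorted. The 48 cells with 4 genes gave 0.199%, and 2.08% held Siglecf. The 121 cells with all 8 genes gave 1.86%, and 66.9% held Siglecf. Cells with 7 or 8 genes made up most of the alveolar macrophages of these 3 lungs and also of the metastases (54 and 57 of 139 cells). In lung replicate 6 there was no such gap, with 1217 cells at 3 genes and 1067 at 4 genes, which gave 0.415% and 0.677% of their UMIs. Siglecf was held by 3.12% and 6.09% of these cells. It was held by 8.36% of the 1064 cells with 5 genes and 28.7% of the 401 with all 8. The median depth of these 4 sets was 1389, 1446, 1485.5 and 3010 UMIs. In the primary tumors, which hold no alveoli, 9 cells met the rule. All 9 held just 4 of the genes, gave a median of 0.256% of their UMIs to them, and held no UMI of Siglecf or Krt79.

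The genes that the rule did not use fitted the label. Summed over the alveolar macrophages of each library with 10 or more of them, Siglecf stood at 81.1 to 169 CPM in 5 libraries, against 0 to 8.34 CPM in the C1q macrophages of the same libraries. C1q macrophages here are cells with a UMI of 2 or more of the C1q genes, fewer than 4 of the 8 alveolar genes and none of the 3 genes of other cells, 541 in all. Genes outside the rule with a mean of at least 50 CPM in alveolar macrophages were ranked by their ratio to C1q macrophages. The 10 with the largest ratio were Cidec, Ear1, Krt19, Krt79, Cpne5, Kcnip4, Fabp1, Fpr1, Gal and Olr1. Cidec, which coats lipid droplets, averaged 202 CPM against 2.04 CPM, a ratio of 99.2. The keratin genes Krt19 and Krt79 averaged 359 and 338 CPM, against 4.30 and 4.12 CPM. Fabp1, a fatty acid carrier best known from liver, averaged 498 CPM against 10.8 CPM, and Olr1, a receptor for oxidized lipoprotein, 218 CPM against 5.07 CPM. Ear1 shares most of its sequence with Ear2, a gene of the rule, so the split of reads between the pair is uncertain. Because the rule separates these cells, the contrast is a description and was not tested.

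Of the growth factor receptors and regulators, some stood apart between the 2 kinds of macrophage and some did not. Csf2rb, the signaling chain of the GM-CSF receptor, averaged 280 CPM in alveolar macrophages and 98.5 CPM in C1q macrophages, whereas Csf1r, the receptor for macrophage colony-stimulating factor, averaged 160 and 714 CPM. Csf2ra, the other chain of the GM-CSF receptor, averaged 284 and 301 CPM, and the TGF-β receptor gene Tgfbr2 120 and 148 CPM. Pparg averaged 115 and 16.7 CPM, and the transcription factor gene Klf4 369 and 373 CPM. Bhlhe40 and Bhlhe41, transcription factors that support self-renewal of alveolar macrophages, averaged 131 and 147 CPM, against 45.1 and 36.5 CPM. Apoe went the other way at 319 CPM against 8426 CPM, as did the MHC class II gene H2-Aa at 474 against 7600 CPM and its invariant chain Cd74 at 1881 against 22330 CPM. Genes of lysosomal degradation went in either direction. Ctss and Psap stood at 2504 and 2678 CPM in alveolar macrophages and at 2759 and 3034 CPM in C1q macrophages. Ctsd (3552 against 820.5 CPM) and Ctsk (352 against 13.5 CPM) were higher in alveolar macrophages, and Ctsb (767 against 1609 CPM) was lower.

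**Figure D2:**
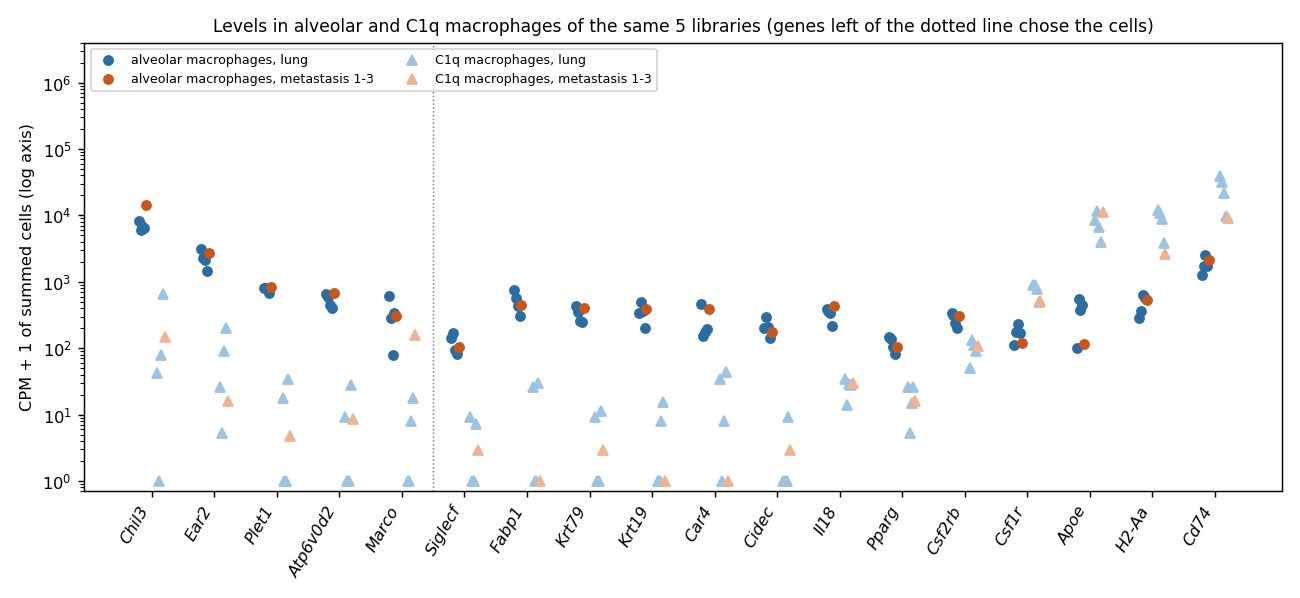
Levels (CPM plus 1, log axis) of 18 genes in alveolar macrophages (circles) and C1q macrophages (triangles) summed per library, in 4 unchallenged lungs (blue) and metastasis replicates 1-3 (orange). Left of the dotted line stand genes that chose the cells; to its right Siglecf, Fabp1, Krt79 and Cidec lie higher in alveolar macrophages, and Apoe, H2-Aa and Cd74 lie higher in C1q macrophages, in each of the 5 libraries.

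The ratio of alveolar to C1q macrophages was set side by side for the tissues, since a depletion of leukocytes acts on both sides. Both sides are counted by the genes of the rule. Cells with at least 4 alveolar genes and 2 or more C1q genes count on neither side. The test below thus concerns cells as the rule counts them, and cannot show that 1 kind replaced the other. In lung replicate 6, 39.5% of cells held at least 4 alveolar genes, and 22.9% of cells did but were excluded, against 0 to 3.69% in the other lung and metastasis libraries. Without this library the difference given below was -44.1 percentage points. The parts of stray RNA and of adjacent lung tissue in the ratio were not tested. Of the macrophages of either kind, 84.4%, 47.0%, 86.6% and 94.0% were alveolar in lung replicates 1, 4, 5 and 6. In metastasis replicates 1-3, 5 and 6, 60.7%, 18.2% and 6.90% were alveolar, with the 2 mice of replicates 1-3 counted as 1 library. Metastasis replicate 4, with 4 of 19, had too few macrophages to be included. The mean was 78.0% ± 21.1 (SD, n = 4) in the lungs and 28.6% ± 28.4 (SD, n = 3) in the metastases, a difference of -49.4 percentage points. The 2 groups overlapped, since lung replicate 4 lay below metastasis replicates 1-3, and the difference did not pass an exact two-sided permutation test over libraries (p = 0.0857, where the smallest possible p was 0.0286).

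The alveolar macrophages of metastasis replicates 1-3 were then compared with those of the unchallenged lungs gene by gene. With libraries taken by sample label, only this metastasis library held 10 or more of the cells. The test planned over libraries with that minimum could therefore not be made. The sums of mouse 2 and mouse 3 were tested against the 4 lung libraries in place of it, with edgeR's quasi-likelihood test and Benjamini-Hochberg adjustment over 8228 genes. Levels in this comparison are CPM scaled by the trimmed mean of M-values (TMM). Both mice shared 1 sample label and 1 sequencing run. That run held only lung replicate 1 of the lungs, so for the other lungs tissue and run cannot be told apart. The cell table gives each mouse its own library name and replicate number, while the sample label pools them as replicates 1-3. Nothing but these names says that the samples were separate animals, and the p-values measure the spread between these sums.

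At an adjusted p under 0.05, 6 genes were higher in the metastasis mice, 0.0729% of the genes tested, and none was lower (0.0%), while 1404 genes had an unadjusted p under 0.05. Calls below are those of edgeR unless DESeq2 is named. DESeq2 on the same sums gave an adjusted p for 2801 genes and called 163 of them higher (5.82%) and 35 lower (1.25%). Without lung replicate 6, 14 of 7013 genes were higher (0.2%) and 2 lower (0.0285%), without lung replicate 1, 418 genes were called, and without mouse 3 none was. The 2 mice lay above all 4 lungs in 1307 genes (15.9%) and below all 4 in 1108 (13.5%). In simulated counts with the depth and spread of these sums, genes were changed only among those above a minimum mean CPM. Of these, the test found 100% raised 4-fold but 30% raised 2-fold. It found 82% of those set to 0.25 times but 10% of those set to 0.5 times their level. Changes of the smaller size were thus mostly not detectable at such levels, and lower genes were found less often than higher ones. Genes of lower mean level, such as Arg1 and AA467197, were not covered by the simulation. The 6 genes were Mmp12, Arg1, AA467197, Dct, Ptgds and Syt4. The first 3 are discussed next as macrophage genes, and the last 3 are melanocyte-lineage genes taken up further on.

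Mmp12 encodes macrophage elastase, which cuts elastin of the alveolar wall (chromosome 9, 7344381 to 7369499, plus strand, in GRCm38). It stood at 4.85, 0, 1.69 and 4.73 CPM in lung replicates 1, 4, 5 and 6 and at 150 and 197 CPM in mouse 2 and mouse 3. Both mice lay far above every lung, with a log2 fold change of 5.44 ± 0.35 (SE; edgeR adjusted p = 8.86e-05), and the adjusted p was 0.0032 with the sequencing run as a block. Leaving out 1 sample at a time kept the call of Mmp12 except without mouse 3 (edgeR adjusted p = 0.0559). Arg1 encodes arginase, which uses up arginine (chromosome 10, 24915221 to 24927484, minus strand). Its level was 0.970, 0, 0 and 2.10 CPM in the lungs and 137 and 55.0 CPM in the mice, a log2 fold change of 5.87 ± 0.59 (edgeR adjusted p = 0.00283). With the run as a block, Arg1 was no longer called (edgeR adjusted p = 0.134), nor was it without mouse 2 or mouse 3 (0.690 and 0.0559), with log2 fold changes of 6.47, 5.36 and 6.53. AA467197, also named Nmes1, encodes a small mitochondrial protein (chromosome 2, 122636986 to 122641191, plus strand). It was measured at 4.85, 0, 1.69 and 10.1 CPM in the lungs and at 68.7 and 97.6 CPM in the mice, with a log2 fold change of 3.69 ± 0.52 (edgeR adjusted p = 0.044). This call was lost with the run as a block, without lung replicate 4 and at 3 of the 8 alveolar genes (edgeR adjusted p = 0.207, 0.109 and 0.166). The log2 fold changes there were 4.11, 3.62 and 3.88. It was also lost without mouse 2 or mouse 3, at log2 fold changes of 4.01 and 3.57. In the C1q macrophages of the same 5 libraries, Mmp12 averaged 381 CPM without TMM scaling and ranged from 126 to 784 CPM. Arg1 averaged 155 CPM there and ranged from 0 to 775 CPM, so its mean rested on the highest library.

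**Figure D3:**
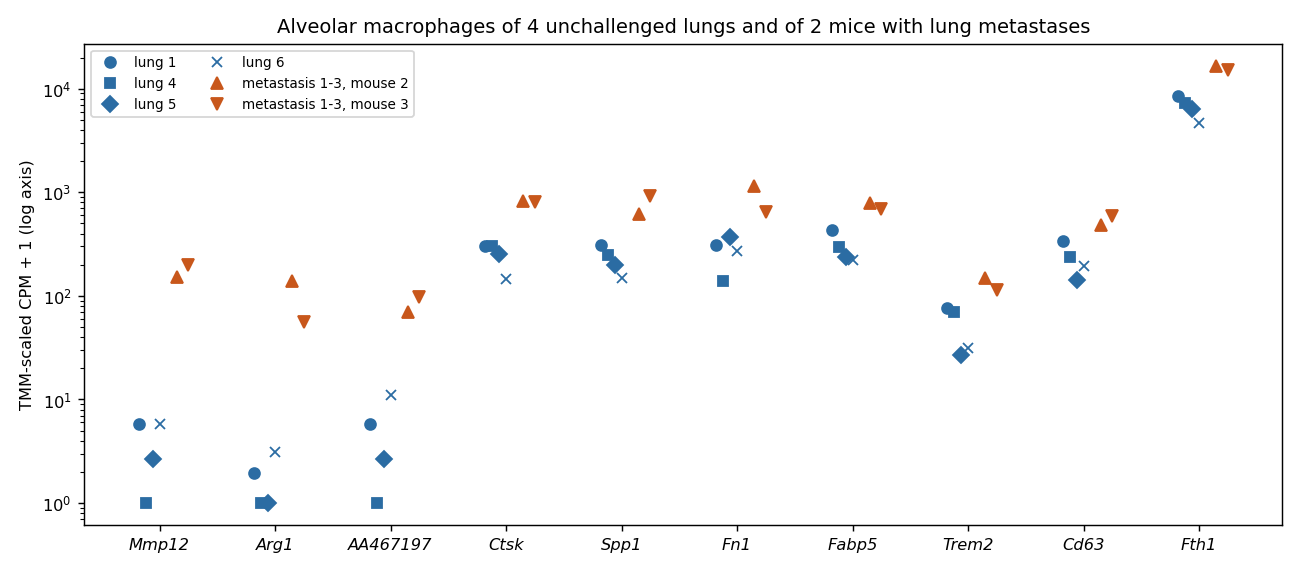
TMM-scaled CPM plus 1 (log axis) of 10 genes in alveolar macrophages of 4 unchallenged lungs (blue, 1 symbol per library) and of mouse 2 and mouse 3 of metastasis replicates 1-3 (orange). Both mice lie above all 4 lungs in each gene shown, by more than an order of magnitude of the lung mean in Mmp12 and Arg1 and by 2.36 to 3.40 times in Ctsk, Spp1, Fn1, Fabp5, Trem2, Cd63 and Fth1, which DESeq2 called and edgeR did not.

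The RNA of Mmp12 and Arg1 came from few cells. Of the 125 alveolar macrophages of metastasis replicates 1-3, 17 held an Mmp12 UMI, 10 an Arg1 UMI, 3 both and 101 neither. The 8 cells with at least 5 UMIs of the 2 genes together, 3 of mouse 2 and 5 of mouse 3, held 145 of the 157 Mmp12 UMIs and 67 of the 73 Arg1 UMIs, a cutoff chosen after the values were seen. These 8 cells carried a median of 7 of the 8 alveolar genes, which took 3.32% of their UMIs. The rule chose the cells by these genes, Chil3 among them, so their levels are no test of the label. Of genes outside the rule, Siglecf was held by 3 of the 8 cells and by 50 of the 101 with neither gene. Apoe stood at 344 against 73.8 CPM and Cd74 at 3438 against 2045 CPM. Summed, the 8 cells held Chil3 at 31131 CPM, Fn1 at 2547 CPM and Ccr2, a receptor of monocytes, at 234 CPM. They held Ly6c2, a surface marker of inflammatory monocytes, at 0 CPM and Krt79 at 141 CPM. The 101 cells with neither gene held Chil3 at 12716, Fn1 at 670, Ccr2 at 10.9, Ly6c2 at 27.3 and Krt79 at 454 CPM. In the sum of only 8 cells, a count of 0 does not set Ly6c2 apart from 27.3 CPM. Thinned to 1000 UMIs per cell, 5.65% of the alveolar macrophages of this library held Mmp12, against 19.8% of its C1q macrophages and 0% of its T and NK cells and its endothelial cells. Before thinning the share of alveolar macrophages was 13.7%, at a median of 7440.5 UMIs. Whether the 8 barcodes each held 1 cell was not tested.

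Ctsk was spread over many more cells. It encodes cathepsin K, a collagen-degrading protease that is typical of alveolar macrophages (chromosome 3, 95499256 to 95509362, plus strand). It stood at 303, 301, 250 and 146 CPM in the lungs and at 824 and 805 CPM in the mice. The mice lay above all lungs, but the difference was not called (log2 fold change 1.73 ± 0.28, edgeR adjusted p = 0.079, and 0.00391 without lung replicate 6). At 1000 UMIs per cell, 46.0% of the alveolar macrophages of metastasis replicates 1-3 held Ctsk (95% interval 37.0% to 55.1%), against 15.8%, 35.5%, 16.3% and 11.7% in lung replicates 1, 4, 5 and 6. C1q macrophages of the metastasis library, which serve as its background, held it in 2.47% of cells. Without thinning the share was 81.5% in the metastasis library and at most 65.5% in the lungs. The 101 cells without Mmp12 or Arg1 held Ctsk at 694 CPM, so its level did not rest on the 8 cells above.

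Other secreted and matrix genes lay higher in both mice without passing the test. Spp1, the gene for osteopontin (chromosome 5, 104435118 to 104441050, plus strand), stood at 310, 247, 196 and 149 CPM in the lungs and at 611 and 921 CPM in the mice (log2 fold change 1.79 ± 0.29, edgeR adjusted p = 0.079, and 0.018 without lung replicate 6). Fn1, the gene for fibronectin, stood at 309, 139, 373 and 269 CPM in the lungs and at 1138 and 651 CPM in the mice (log2 fold change 1.68 ± 0.33, edgeR adjusted p = 0.114). For both genes the groups did not overlap, and the 2 mice lay further apart than they did for Ctsk. Wfdc17, a secreted protein of activated macrophages, ranged from 98.9 to 147 CPM in the lungs against 288 and 483 CPM, and Mif, the macrophage migration inhibitory factor, from 77.3 to 115 CPM against 245 and 209 CPM (edgeR adjusted p = 0.0587 and 0.0953, and 0.0175 and 0.0444 without lung replicate 6). Leaving out lung replicate 6 or 1, or the filter on low counts, brought Ctsk, Spp1, Wfdc17 and Mif past the threshold. Spp1 also passed with no UMI of the C1q genes (edgeR adjusted p = 0.0417). Mif also passed in replicates 5 and 6 alone (0.00257) and with 4 libraries of each tissue and the replicate number as a block (0.0435). In that block setting the edgeR adjusted p of Ctsk, Spp1 and Wfdc17 was 0.962, 0.996 and 0.996. With the run as a block it was 0.397, 0.459, 0.181 and 0.461 for Ctsk, Spp1, Wfdc17 and Mif. The melanocyte-lineage gene Dct had log2 fold changes of 8.63 in replicates 5 and 6 alone and 7.30 with the replicate block. The part of melanoma RNA in the level of Mif was not tested. In the 101 cells without Mmp12 or Arg1, Spp1 stood at 482 CPM and Fn1 at 670 CPM. In C1q macrophages, without TMM scaling, Spp1 averaged 231 CPM (0 to 1112 CPM by library) and Fn1 667 CPM (41.7 to 2311 CPM).

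Of the 15 tumor macrophage genes listed, 9 could be tested. Mmp12 and Arg1 rose by edgeR (0.0729% of all genes did), and 5 of the 9 (55.6%) lay above all lungs, against 15.9% of all genes, and none below. DESeq2 called Mmp12, Spp1 and Fn1 and gave Arg1 no adjusted p. The median log2 fold change was 0.94, against -0.03 over all genes tested. It was 1.11 without lung replicate 6 and 1.29 against lung replicate 1, the lung of the same run. Cd274, which encodes the checkpoint ligand PD-L1, was the member below 0, with 88.1 to 150 CPM in the lungs against 81.7 and 110 CPM in the mice.

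Of 25 genes by which alveolar macrophages are known, listed apart from the rule, 24 were tested. EdgeR called none of them, 9 (37.5%) lay above all lungs, against 15.9% of all genes, and none below, and the median log2 fold change was 0.48. DESeq2 called 4 higher, Ctsk, Fabp5, Fabp4 and Ccl6, where it called 5.82% of all genes higher. That median was 0.28 without lung replicate 6 and 0.09 within the first run. Siglecf stood at 143, 170, 93.6 and 78.4 CPM in the lungs and 94.8 and 115 CPM in the mice. Pparg stood at 150, 139, 104 and 78.4 CPM in the lungs and 128 and 99.3 CPM in the mice. Both genes overlapped between the tissues, as did Fabp1, Itgax, Krt79 and Car4. Among the genes above all lungs beside Ctsk, the fatty acid carrier gene Fabp5 ranged from 223 to 435 CPM in the lungs against 785 and 690 CPM, and its relative Fabp4 from 128 to 208 CPM against 278 and 493 CPM (edgeR adjusted p = 0.114 for both). Among the genes that chose the cells, Chil3, a secreted chitinase-like protein, ranged from 6126 to 8212 CPM in the lungs and stood at 13519 and 15962 CPM in the mice, and Plet1 from 644 to 828 CPM against 879 and 896 CPM, while Ear2, Abcg1, Lpl, Mrc1, Marco and Atp6v0d2 overlapped.

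Of 21 phagocytic and lysosomal genes tested, 12 (57.1%) lay above all lungs, against 15.9% of all genes, and none below. EdgeR called none and DESeq2 called 5 of 20 higher, among them Cd63 and Trem2, against 5.82% of all genes. The median log2 fold change was 0.40, and 0.20 within the first run. Trem2, a lipid-sensing receptor of macrophages in diseased tissue, stood at 75.6, 69.4, 26.1 and 30.6 CPM in the lungs and at 147 and 114 CPM in the mice. At 1000 UMIs, 16.1% of the alveolar macrophages of the metastasis library held Trem2, against 2.33% to 9.68% in the lungs. Cd63, a tetraspanin of late endosomes, ranged from 142 to 337 CPM in the lungs against 487 and 593 CPM. The authors also used Cd63 as a marker of melanoma cells, and the part of melanoma RNA in its level was not tested. Of 23 lipid and cholesterol genes, 3 lay above and 2 below all lungs, shares no larger than the 15.9% and 13.5% of all genes, with a median of 0.12 and no call by edgeR or DESeq2. Hmgcs1, which starts cholesterol synthesis, ranged from 54.8 to 79.1 CPM against 124 and 128 CPM (edgeR adjusted p = 0.118), and its log2 fold change of 0.92 turned to -0.74 in replicates 5 and 6 alone.

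Iron, stress and energy genes followed. Fth1, the heavy chain of the iron store ferritin, stood at 8528, 7284, 6385 and 4694 CPM in the lungs and at 16622 and 15100 CPM in the mice (log2 fold change 1.24 ± 0.25, edgeR adjusted p = 0.114, 0.0134 without lung replicate 6 and 0.586 with the run as a block). Of the 7 metal and iron genes tested, 3 (42.9%) lay above all lungs, with a median of 0.70, and of 12 glycolysis and hypoxia genes 5 did (41.7%), with a median of 0.26, against 15.9% of all genes. EdgeR called none of either list, and DESeq2 called Fth1. Of the 16 immediate early and heat shock genes 4 lay below all lungs, against 13.5% of all genes, and the median was -0.95. EdgeR called none of them, and DESeq2 called 4 of 14 lower, among them Jun and Fos, against 1.25% of all genes. Within the first run that median was 0.47, the opposite sign. Jun, for example, stood at 315, 698, 598 and 496 CPM in lung replicates 1, 4, 5 and 6 and at 265 and 222 CPM in the mice, with replicate 1 nearest to the mice.

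The interferon-stimulated genes also had medians of opposite sign by the lung they were set against. Of 15 tested, 1 lay above and 2 below all lungs (6.67% and 13.3%), no more than the 15.9% and 13.5% of all genes, and the median log2 fold change was -1.58 over all lungs, -0.55 without lung replicate 6 and 0.09 within the first run. Irf7, a master regulator of this response, stood at 5.82 CPM in lung replicate 1, 27.0 to 50.6 CPM in the other lungs, and 0 and 7.10 CPM in the mice. MHC class II genes had a median of 0.37 with 1 of 7 above all lungs (14.3%), and MHC class I genes a median of -0.02 with 1 of 9 on either side (11.1%). Inflammatory genes had a median of 0.16, with 4 of 16 above and 2 below (12.5%). Growth factor receptors had a median of -0.25 with 1 of 10 below all lungs (10.0%). Apart from the inflammatory genes above all lungs, these shares were below the 15.9% and 13.5% of all genes. Within the first run the medians were 0.94 for the MHC class II genes and 0.67 for the inflammatory genes. Both chains of the GM-CSF receptor overlapped, Csf2rb with 194 to 343 CPM against 298 and 346 CPM. With all 4 lungs neither edgeR nor DESeq2 called a gene of these lists or of the interferon-stimulated genes.

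**Figure D4:**
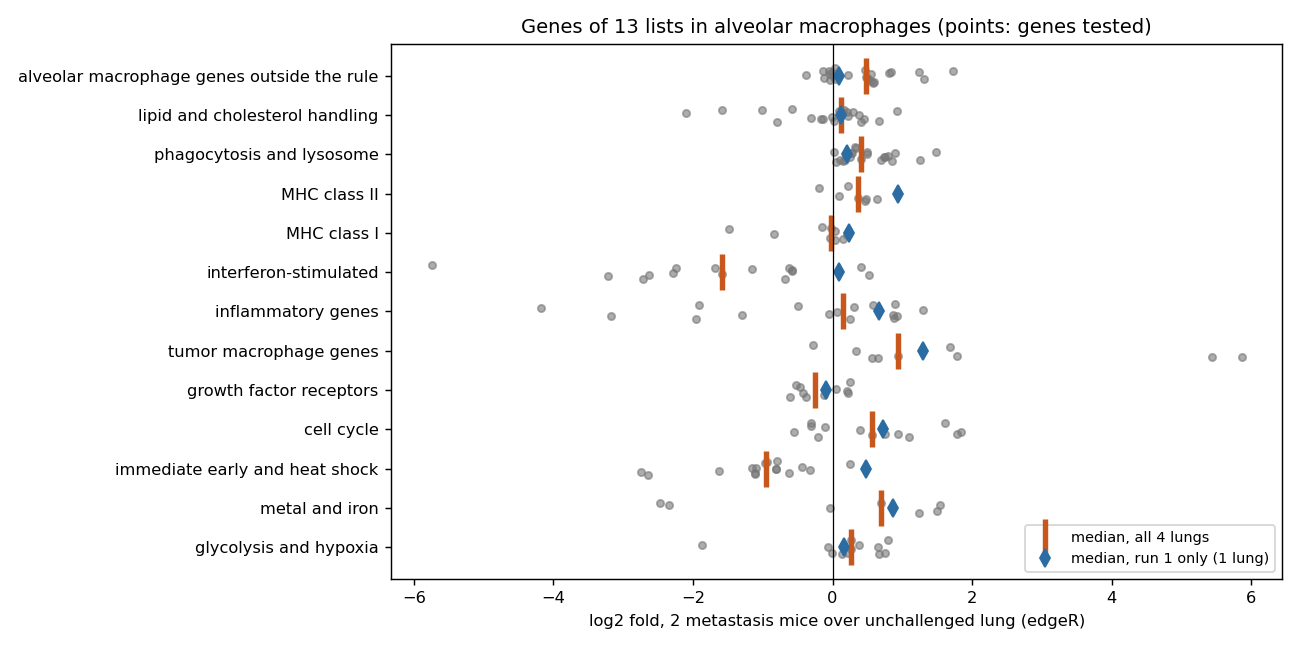
Log2 fold change (metastasis mice 2 and 3 over 4 unchallenged lungs, edgeR) of each gene tested in 13 lists (gray points), with the median of each list over all 4 lungs (orange bars) and within the first run, against lung replicate 1 alone (blue diamonds). The 2 medians share a sign in most lists and part in the interferon-stimulated genes (-1.58 and 0.09), the immediate early and heat shock genes (-0.95 and 0.47) and the MHC class I genes (-0.02 and 0.23).

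EdgeR called no gene lower in this comparison. It called 182 of 7167 genes lower without lung replicate 1, 28 with no filter on low counts and 16 with replicates 5 and 6 alone. It called 2 without lung replicate 6 and 1 with cells thinned to 1000 UMIs. Cx3cr1, the fractalkine receptor of monocytes, was among the 10 lower genes with the smallest p in the reported comparison. It stood at 27.2, 104, 199 and 157 CPM in the lungs and at 6.54 and 3.55 CPM in the mice (log2 fold change -4.73 ± 1.01, edgeR adjusted p = 0.114). Adgre5, which encodes the adhesion receptor CD97, ranged from 51.4 to 266 CPM against 13.1 and 17.7 CPM, and Ssh2, a phosphatase of actin remodeling, from 121 to 229 CPM against 68.7 and 81.6 CPM. In each of these genes lung replicate 1 was the lowest of the lungs. All 7 monocyte markers lay below 0, with a median of -2.42 and 3 (42.9%) below all lungs, against 13.5% of all genes, and their summed level in the alveolar macrophages was 261, 782, 1639 and 1263 CPM in the lungs and 111 and 281 CPM in the mice. Within the first run the median of the monocyte markers was 0.14. Their part in the lower genes was not tested. Napsa, an aspartic protease made mainly by alveolar type 2 cells, ranged from 96.4 to 158 CPM against 55.6 and 42.6 CPM, and Lars2, a mitochondrial leucyl-tRNA synthetase, from 989 to 1308 CPM against 490 and 610 CPM (edgeR adjusted p = 0.114 for both, and 0.0692 and 0.0286 without lung replicate 6). Against lung replicate 1 alone the log2 fold changes of these 2 genes were -1.27 and -1.10. Cx3cr1, Adgre5, Ssh2, Napsa and Lars2 were each called lower by DESeq2, and by edgeR without lung replicate 1. Markers of alveolar type 2 cells summed to 76.6, 15.3, 318 and 2031 CPM in the alveolar macrophages of the lungs and to 15.4 and 28.3 CPM in the mice, with a median log2 fold change of -5.27 over the 4 tested, -2.46 without lung replicate 6 and -1.65 within the first run, and the median of the club cell markers was -4.61, -2.36 and -0.23. The part of these cells in the level of Napsa was not tested.

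UMIs of genes of the melanocyte lineage, which mark the melanoma (MM) cells, were found in the alveolar macrophages of the metastases. Dct, an enzyme of melanin synthesis, stood at 4.85, 0, 4.21 and 2.10 CPM in the lungs and at 134 and 181 CPM in the mice (log2 fold change 5.81 ± 0.38, edgeR adjusted p = 8.86e-05). Ptgds, a prostaglandin synthase, stood at 1.94, 0, 0 and 0.421 CPM in the lungs and 45.8 and 53.2 CPM in the mice (edgeR adjusted p = 0.00283). Syt4, a vesicle protein, was at 0 in 3 lungs and 0.316 CPM in replicate 6, against 16.3 and 26.6 CPM (edgeR adjusted p = 0.044). With the run as a block Dct kept its call (edgeR adjusted p = 0.0032) and Ptgds and Syt4 did not (0.188 and 0.459). The log2 fold changes of Ptgds and Syt4 were 4.65 and 8.60 with the block, against 6.42 and 6.24 without it. Syt4 was also not called without lung replicate 4, at 5 of the 8 alveolar genes or with no C1q UMI (edgeR adjusted p = 0.0803, 0.0588 and 0.0840). Calls were also lost without mouse 3 for Dct, without either mouse for Ptgds and without mouse 2 for Syt4. The log2 fold changes there were 5.49 for Dct, 6.17 to 6.44 for Ptgds and 6.72 for Syt4. All 8 MM markers were detected in the alveolar macrophages of both mice, with a sum of 271 and 326 CPM against 41.8 to 70.9 CPM in the lungs. The other cells of the same library carried at least as much, with 340 CPM in C1q macrophages and 581 CPM in endothelial cells. At 1000 UMIs, 14.5% of the alveolar macrophages held Dct, against 13.6% of C1q macrophages, 20.5% of endothelial cells and 28.2% of T and NK cells. The source of this RNA was not tested.

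**Figure D5:**
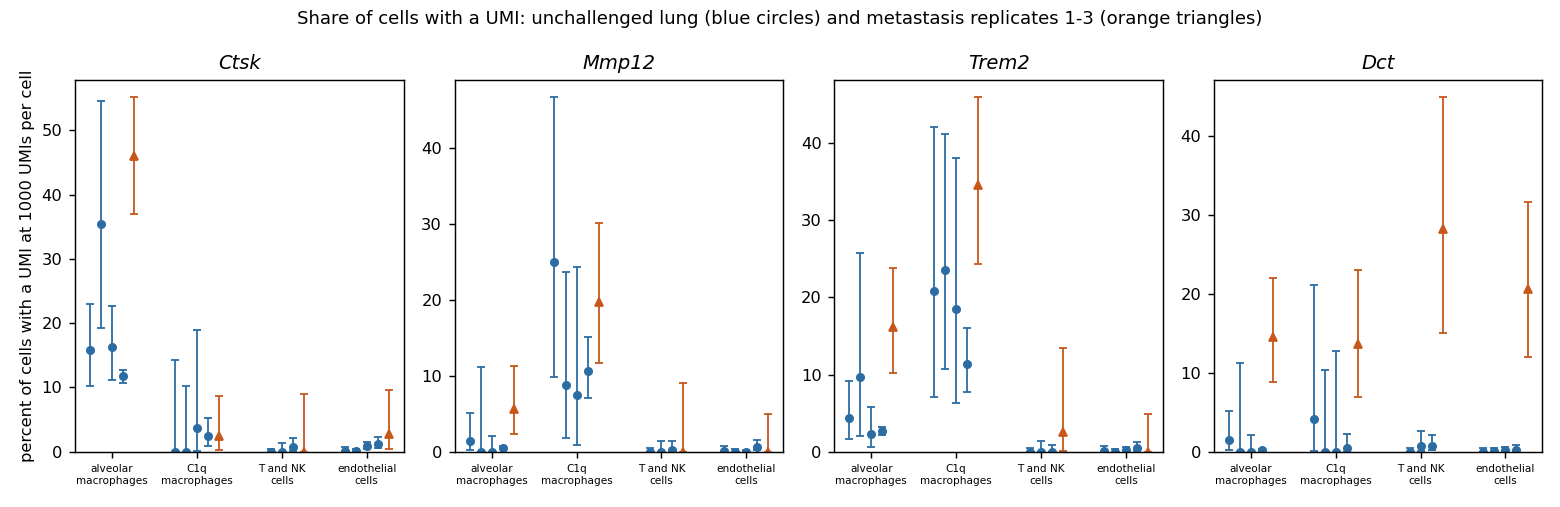
Percent of cells with a UMI of Ctsk, Mmp12, Trem2 and Dct at 1000 UMIs per cell, in 4 kinds of cells of the unchallenged lung libraries (blue circles) and of metastasis replicates 1-3 (orange triangles), with 95% exact binomial intervals. Ctsk is highest in alveolar macrophages and Mmp12 and Trem2 in C1q macrophages, while Dct stands between 13.6% and 28.2% in all 4 kinds of cells of the metastasis library.

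Measures over many genes were also taken. In the third of genes with the shortest transcripts the median log2 fold change was 0.25, with 850 genes above all lungs and 162 below, and in the third with the longest it was -0.25, with 124 above and 598 below. Within the first run these medians were 0.25 and -0.20. The part of transcript length in the values of single genes and lists above was not tested. Mitochondrial genes took a median of 4.15%, 7.23%, 5.43% and 4.22% of UMIs in the alveolar macrophages of metastasis replicates 1-3, 4, 5 and 6, against 4.75% to 6.63% in the lungs. Neutrophil markers summed to 721 and 1682 CPM in mouse 2 and mouse 3, against 70.9, 104, 1111 and 5705 CPM in lung replicates 1, 4, 5 and 6. The median log2 fold change of the 5 neutrophil markers tested was -0.85 over all lungs, 1.51 without lung replicate 6 and 4.45 within the first run. Their part in the results above was not tested.

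Proliferation was read from Mki67 and Top2a, genes of dividing cells. At 1000 UMIs per cell, a UMI of either was found in 4.32% (6 of 139), 6.45% (2 of 31), 5.81% (10 of 172) and 4.32% (173 of 4002) of the alveolar macrophages of lung replicates 1, 4, 5 and 6. In metastasis replicates 1-3 the share was 8.06% (10 of 124, 95% interval 3.94% to 14.3%), which was 2.84 percentage points above the mean of the lungs. The interval held every lung value, and with 1 metastasis library an exact permutation test gave p = 0.2, the smallest it allows. The 2 mice differed, with Mki67 at 137 CPM in mouse 2 and 23.1 CPM in mouse 3 and at 7.72 to 90.2 CPM in the lungs. Of 13 cell cycle genes tested, 2 lay above all lungs (15.4%, against 15.9% of all genes), edgeR called none, DESeq2 called 1, Stmn1, and the median log2 fold change was 0.57.

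The 14 alveolar macrophages of metastasis replicates 4, 5 and 6 gave sums of only 40579, 24839 and 30245 UMIs. Their 8 alveolar genes took a median of 2.70%, 1.18% and 1.41% of UMIs, against 1.15% to 1.71% in the lungs, where the rule chose the cells on these genes. In CPM without TMM scaling, Ctsk stood at 345, 1168 and 265 in them, and Arg1 at 0, 40.3 and 298 CPM. Mmp12 was not detected in any of the 3. Since 8 of 125 cells held most of its UMIs in replicates 1-3, a difference from mice 2 and 3 was not detectable with 4, 6 and 4 cells. Spp1 stood at 24.6, 121 and 165 CPM in replicates 4, 5 and 6, within or below the range of the lungs, and Fabp4 at 0, 201 and 0 CPM. Trem2, at 123, 282 and 99.2 CPM, rested on 5, 7 and 3 UMIs, and the exact Poisson intervals of replicates 4 and 6 (40.0 to 288 and 20.5 to 289.9 CPM) reached into the range of the lungs. Thus the higher levels of Spp1 and Fabp4 in mice 2 and 3 were not seen in the other metastasis libraries, where both genes rested on few UMIs. In replicates 5 and 6 of both tissues alone, their log2 fold changes were -0.64 and -1.17. Those of Fn1, Cd63, Fth1 and Mif were 1.14, 1.52, 0.67 and 2.40 there. Arg1 was called in that setting (log2 fold change 6.26, edgeR adjusted p = 1.66e-06), where the metastasis sums held 6 and 4 cells. Ctsk lay above all 4 lungs in 2 of the 3 sums of these cells, on 14 and 29 UMIs. The sum with 14 UMIs, of replicate 4, lay only slightly above the highest lung, a gap that so few UMIs cannot set apart. The melanocyte-lineage gene Dct was detected in these cells too, at 98.6, 2335 and 430 CPM.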

How the data were processed

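Single-cell 3′ libraries were aligned to GRCm38 and counted by the authors with Cell Ranger 6.1.1, and the deposited UMI counts hold the barcodes that they kept in Seurat 3.2.2 after limits on detected genes and on ribosomal and mitochondrial RNA. The percent of mitochondrial UMIs per cell was used as deposited by the authors, and their normalized table was not used. Of the 24 library names in the count table, 7 were not analysed here (52570 barcodes). Cells were assigned to libraries, mice and runs by the deposited cell table. Gene positions are those of GENCODE M21.

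Counts were summed per library over the cells that met the rule. The test planned over libraries of at least 10 cells could not be made, because by sample label 1 metastasis library reached that number. The sums of its 2 mice, which the cell table lists under separate library names, were tested in its place. This choice was made after the data were seen. Genes were filtered with filterByExpr, scaled with TMM and tested with edgeR 4.0.16 (quasi-likelihood, R 4.3.3), which was first tested on simulated counts; limma-voom (limma 3.58.1) and DESeq2 1.42.0 were alternatives. Shares were compared by exact permutation over libraries (scipy 1.17.1). For equal depth, cells were thinned to 1000 UMIs (seed 11). Intervals are 95% exact binomial or Poisson and cover counting error only, and a count of 0 is given a limit of 3 counts. Sums ranged from 260840 to 9189207 UMIs in the lungs and came to 926397 in metastasis replicates 1-3. Genes were named if they belonged to the rule or a list, or if called where mean CPM reached 20 and the groups did not overlap, or if among the 10 smallest p in either direction. The lists, the cell rule and the comparisons were chosen with earlier results of these data known.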

Additional observations from a re-analysis of the deposited data

Results flagged for a closer look

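Alveolar macrophages made up 15.9% of the cells of metastasis replicates 1-3, against 0.116% to 0.605% in the other 3 metastasis libraries, a gap wider than the 95% limit of Dixon's test for 4 samples. The share of cells with at least 4 of the 8 alveolar genes was likewise 19.6% in that library, against 0.116% to 0.676% in the others, and the 2 values rest on nearly the same cells. Among the lungs, Ssh2 stood out by the same measure, at 121 CPM in replicate 1 against 218 to 229 CPM in the others. Syt4 was flagged too, at 0.316 CPM in replicate 6 and at 0 in the others. Beside 3 values of 0, any other value would be flagged. Replicate 6 also had the largest sum, 9189207 UMIs against 260840 to 1196464. Of 37 groups examined 4 stood out in this way, and chance alone would mark about 5% of them. Ptprc was held by 80.3% of the cells of metastasis replicates 1-3, by 75.0% in replicate 4, where alveolar macrophages were few, and by 2.26% and 29.5% in replicates 5 and 6. The parts of the sort gate and of adjacent lung tissue in the gap between the metastasis libraries were not tested.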

How the results depend on the processing

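The number of genes called, 6 in the reported comparison, depended strongly on the processing. It was 198 with DESeq2 (163 higher, 35 lower), 100 with no filter on low counts (72 and 28), 3 with cells thinned to 1000 UMIs, 2 with the sequencing run as a block, 150 within the first run, where the lone lung was assumed to vary like the mice, 2 with all 4 metastasis libraries of at least 1 cell against 4 lungs, and 27 with replicates 5 and 6 alone. Leaving out 1 sample gave 0 to 418 genes: 418 without lung replicate 1, 16 without lung replicate 6, 4 without lung replicate 4, 2 without mouse 2 and 0 without mouse 3 (a lone mouse was assumed to vary like the lungs), where 1115 genes had an unadjusted p under 0.05. The remaining alternatives without a replicate block gave 5 or 6. The genes above all lungs, 1307 in the reported comparison, numbered 313 of 2322 tested after thinning, 2483 of 7302 within the first run, and 2354 and 2617 without mouse 2 or mouse 3; those below, 1108, numbered 283, 2590, 2370 and 2821. With 4 libraries of each tissue 55 genes lay above and 379 below, and in replicates 5 and 6 alone 931 and 2946, so that lower genes outnumbered higher ones. The causes were not tested, except that a comparison with fewer samples leaves fewer values to overlap.

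With the replicate number as a block over 4 libraries of each tissue, 12 genes were called (11 higher, 1 lower), and over the 3 pairs with enough macrophages the share differed by -59.8 percentage points (exact p = 0.25, the smallest possible), as it did without lung replicate 4 and no block. The number of lung replicate 1 rests on its label alone. Deviations of same-numbered libraries correlated at 0.15, -0.02, 0.03 and 0.00 over 3201 genes, and not every library correlated best with its own number. The largest correlation was that of lung replicate 1 with metastasis replicates 1-3. These values cannot decide whether the numbers pair the samples, because metastasis replicates 4, 5 and 6 are sums of 4, 6 and 4 cells. Same-numbered libraries of the 2 tissues shared a sequencing run.

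Of the 468 log2 fold changes of 26 single genes under the alternatives in which each gene was tested (Mmp12, Arg1, AA467197 and Syt4 were not with 4 libraries of each tissue), 359 kept their direction and side of the threshold, 81 passed it in addition, 19 no longer passed and 9 reversed, all 9 in settings whose metastasis sums include libraries of 4 to 6 cells. In replicates 5 and 6 alone Spp1 reversed to -0.64, Fabp4 to -1.17, Chil3 to -0.12, Hmgcs1 to -0.74 and AY036118, 1 of the 10 lower genes with the smallest p (-1.57), to 0.98. With 4 libraries of each tissue AY036118 reversed to 0.69, and with the replicate block as well AY036118 reversed to 0.29, Spp1 to -0.15 and Fabp4 to -0.32. The macrophage share kept its sign in every alternative, from -65.5 to -38.6 percentage points when 1 library was left out. With 1 library left out or replicates 5 and 6 alone the smallest possible p was 0.0667 to 0.333, so those settings could not pass; the 4 that could gave p = 0.0571 to 0.0857 (exact permutation test). The difference in cells with Mki67 or Top2a, 2.84 percentage points, was 5.05 without thinning, and it could not be computed for replicates 5 and 6 alone. Scaling without a factor moved the median log2 fold change of all genes from -0.03 to -0.15. A minimum of 20 cells kept the same libraries.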
